A study of Mus musculus with 19 samples.

Results

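Transcriptional regulators that shape and maintain astrocyte identity were followed in sorted mouse hippocampal cells. They were chosen by name, with earlier results of these data known. The 10 genes, of 60567 genes in the table, were Sox9, Sox2, Nfia, Nfib, Nfix, Hes1, Hes5, Id4 and Lhx2, which encode nuclear regulators, and Notch1, which encodes a receptor upstream of Hes1 and Hes5. Each gene was found in 1 row, and Notch1 shared its row with the microRNA gene Mir6996.

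Cells were isolated by FACS from the hippocampi of male mice, aged 9 months and of a C57BL/6 background, and their RNA was sequenced. WT-GFP astrocytes (7 samples) came from WT mice that received an AAV2 of serotype 9 encoding GFP under the gfaABC1D promoter, a short GFAP promoter active in astrocytes. APP-GFP astrocytes (4 samples) came from APP/PS1dE9 mice, which express a mouse and human App chimera bearing the Swedish mutation together with a further human transgene, and which received the same vector. APP-SOCS3 astrocytes (5 samples) came from APP/PS1dE9 mice that received vectors encoding SOCS3, an inhibitor of JAK2-STAT3 signalling, and GFP at the same total titer. GFP- cells (3 samples) were the non-fluorescent cells of WT-GFP hippocampi, described as microglia, neurons, oligodendrocyte precursors and non-infected astrocytes. All 4 groups thus received a vector carrying GFP, and sorting for GFP selects only the astrocytes that a vector reached. The GFP+ group sizes are described as numbers of mice, and the methods also state that both hippocampi of a mouse were sorted separately. The labels name no mouse, and which mice gave the GFP- samples is not stated, so p-values measure the spread between samples.

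Astrocytes arise from radial glia, in which Sox9 and the nuclear factor I proteins (Nfia, Nfib, Nfix) switch progenitors from making neurons to making glia. Sox2, Lhx2, Hes1, Hes5 and Id4 are best known for keeping progenitors undifferentiated, and several of them remain active in adult astrocytes. Notch ligands on a neighbouring cell lead to cleavage of the receptor by ADAM proteases and gamma-secretase, and the freed intracellular domain binds the DNA-binding protein RBPJ at genes such as Hes1 and Hes5.

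The RefSeq promoter set of the build GRCm38.p6 held 11 promoters of 7 of the 10 genes. Each promoter runs from 250 bases before a transcription start to 50 bases after it. Sox9, Nfib and Hes1 had no entry. The core TGGGAA that RBPJ recognises was searched on both strands, since Hes5 and Hes1 are textbook Notch targets, and it was found in promoters of 3 genes, Hes5, Lhx2 and Id4. The core was found in 4 of these 11 promoters and in 25.6% of all 32851 promoters. The STAT motif TTCNNNGAA, the same on both strands, was searched because the vector in APP-SOCS3 targets JAK2-STAT3 signalling. It was found in 1 Nfix promoter, from 155 to 147 bases before the start, and in 8.3% of all promoters. These letters mark matches and not shown binding sites. Below are the 250 bases before the Hes5 start (chr4:154960673-154960922, plus strand), and the stretches around each match at Lhx2, which has 2 starts (chr2:38339031-38339076 and chr2:38351279-38351307, plus strand), and at Id4 (chr13:48260866-48260896, plus strand). Capitals mark the RBPJ core, which reads TTCCCA where it lies on the minus strand.
Hes5: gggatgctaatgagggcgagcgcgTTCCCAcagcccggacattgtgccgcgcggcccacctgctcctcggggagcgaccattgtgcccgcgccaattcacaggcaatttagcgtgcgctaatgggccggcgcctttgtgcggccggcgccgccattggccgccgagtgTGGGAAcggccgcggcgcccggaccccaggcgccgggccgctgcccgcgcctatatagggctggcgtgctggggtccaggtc
Lhx2, first start: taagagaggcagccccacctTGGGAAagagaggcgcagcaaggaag
Lhx2, second start: tactccagttcgcctttggtTGGGAAcac
Id4: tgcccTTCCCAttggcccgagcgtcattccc
Hes5 held the core at 2 places, from 226 to 221 bases before the start on the minus strand and from 82 to 77 bases before the start on the plus strand. The Lhx2 matches began 230 and 9 bases before their starts, and the Id4 match began 245 bases before its start.

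Between 19331876 and 32621917 reads per sample lay on genes, and 15575 to 31897 genes were detected per sample. Fewer than 20000 genes were detected in 4 GFP+ samples, namely WT-GFP replicates 1, 2 and 3 and APP-GFP replicate 2. The sort was checked with marker lists. All 12 astrocyte markers were higher in GFP+ than in GFP- cells of WT-GFP, with summed normalised read counts of 640332 to 1055530 against 58133 to 113976. All 10 microglia, 10 endothelial, 8 mural and 7 oligodendrocyte precursor markers, 6 of 8 neuron markers and 6 of 10 neural progenitor and neuroblast markers were lower, whereas no ependymal marker of 8 was called and 1 of 7 oligodendrocyte markers tested was higher and 2 were lower. In GFP- cells the sums were 125123 to 197521 for endothelial, 110568 to 146477 for mural and 94057 to 166690 for microglia markers. They were 2023 to 4655 for neuron and 1214 to 1947 for oligodendrocyte markers. Endothelial and mural cells are not named in the description of this fraction, and sums of different lists do not give shares of cells. The summed level of every list was above 0 in each GFP+ sample, and 3 of the 10 progenitor and neuroblast markers were at 0 in all APP-GFP samples and 1 in all APP-SOCS3 samples. Among GFP+ samples, summed endothelial markers lay between 3451 and 33859 in WT-GFP, between 5206 and 28326 in APP-GFP, and between 1008 and 5782 in APP-SOCS3. For summed microglia markers these ranges were 8450 to 30106, 12321 to 54477 and 6565 to 11207 in the same order, and all 10 microglia and all 10 endothelial markers were lower in APP-SOCS3 than in APP-GFP. Socs3 had a mean normalised read count of 834 ± 269 (SD, n = 7) in WT-GFP, 1079 ± 493 (n = 4) in APP-GFP, 19463 ± 10281 (n = 5) in APP-SOCS3 and 14611 ± 3831 (n = 3) in GFP- cells.

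The first comparison asked which of the 10 genes distinguish GFP+ astrocytes from the GFP- cells, a mixture with high endothelial, mural and microglia marker levels. Sox9, Sox2, Hes5, Id4 and Lhx2 were higher in GFP+ than in GFP- cells of WT-GFP, by 6.76- to 15.8-fold of the mean normalised read count. Hes1 and Notch1 were lower in GFP+ cells, by 3.56- and 1.92-fold. The 3 nuclear factor I genes did not pass the test. Genes were called with limma on log2(normalised read count + 1), where an unadjusted p of up to 0.05 and a fold change of at least 1.5 were both required. By this rule 9.25% of the 26709 genes tested were higher in GFP+ cells and 33.5% were lower, and the median log2 difference was -1.31 over all genes and 1.53 over the 10 genes. These shares stand for 2471 genes higher and 8948 lower. With edgeR, which changes the scaling and the model together, there were 3323 higher and 5265 lower and the median was -0.37, with DESeq2 there were 3173 and 5784 with a median of -0.67, and with equal totals, which changes the scaling alone, there were 2034 and 9980 with a median of -1.5. In a bulk sample, fewer cells of a type and less RNA per cell cannot be told apart.

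**Figure D1:**
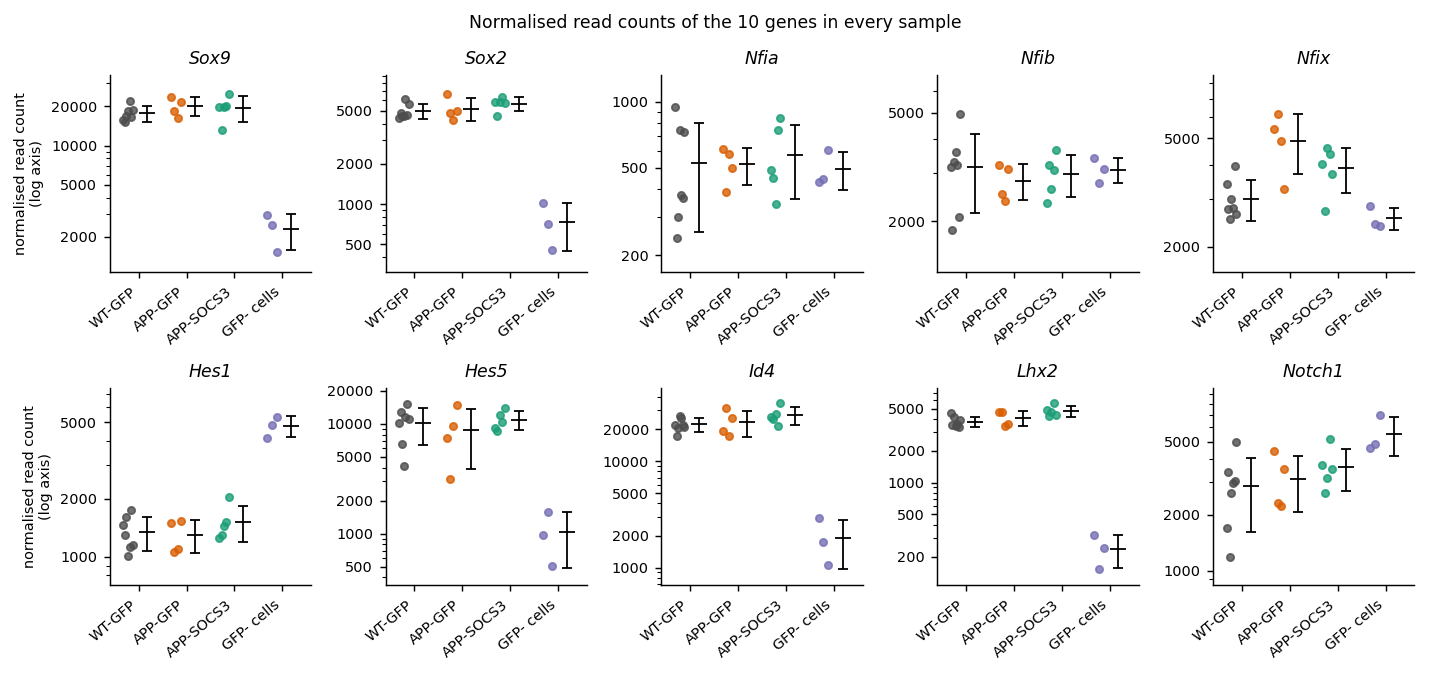
Normalised read count of each of the 10 genes (y axis, log scale) in every sample (points) of the 3 astrocyte groups and of GFP- cells (x axis), with mean ± SD beside the points. Sox9, Sox2, Hes5, Id4 and Lhx2 lie above the GFP- samples in all 16 GFP+ samples and Hes1 lies below them, whereas the 3 nuclear factor I genes overlap between GFP+ and GFP- cells in WT-GFP.

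Sox9 encodes an HMG-box factor that is needed for astrocyte specification and labels nearly all astrocytes of the adult forebrain outside the neurogenic niches. Its normalised read count in WT-GFP astrocytes was 15178 in the lowest, 16760 in the median and 22068 in the highest sample. The GFP- samples had 2929, 2449 and 1534. The groups were far apart, and the log2 difference was 2.98 (SE 0.20, limma adjusted p = 7.0e-06, exact permutation p = 0.0167). Sox9 is the unique gene of its row (GSMG0006075, chr11:112782210-112787757 on mm10), and no other annotated gene overlapped it.

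Sox2, a relative of Sox9 that maintains neural stem cells and is also present in mature astrocytes, had 4375, 4615 and 6060 in the lowest, median and highest WT-GFP sample. In GFP- cells it reached 1027, 707 and 457. All 7 GFP+ samples exceeded them, with a log2 difference of 2.82 (SE 0.23, limma adjusted p = 8.8e-06). Sox2 lies within the noncoding gene Sox2ot on the same strand, and reads in shared sequence cannot be told apart.

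Lhx2 encodes a LIM-homeodomain factor that favours neurogenesis over astrogliogenesis in the developing hippocampus. Its level in WT-GFP astrocytes was 3386, 3542 and 4499 in the lowest, median and highest sample. The 3 GFP- samples gave 318, 153 and 243. The difference of 4.03 (SE 0.23, limma adjusted p = 5.1e-06) was the highest among the 10 genes, and no samples overlapped.

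Id4 encodes a protein that lacks a DNA-binding domain and sequesters basic helix-loop-helix factors. WT-GFP astrocytes had 17296, 21737 and 26717 in the lowest, median and highest sample. GFP- cells had 2899, 1738 and 1064. Id4 was thus higher in all 7 GFP+ samples, by 3.64 on the log2 scale (SE 0.26, limma adjusted p = 7.0e-06).

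Hes5 and Hes1, both repressors of the basic helix-loop-helix type induced by Notch, differed in opposite directions. Hes5 had 4151, 11017 and 15228 in the lowest, median and highest WT-GFP sample. Counts in the GFP- samples were 977, 1591 and 509. Hes5 spread more between astrocyte samples than the other 4 genes that were higher (CV of 36.8% in WT-GFP), yet no GFP- sample reached the lowest of them, and the log2 difference was 3.36 (SE 0.43, limma adjusted p = 0.00015).

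Hes1 had 1014, 1296 and 1740 in the lowest, median and highest WT-GFP sample. In GFP- cells it reached 4140, 4863 and 5348. Every GFP+ sample lay below every GFP- sample, and Hes1 was lower by -1.85 (SE 0.21, limma adjusted p = 6.2e-05). Hes1 (chr16:30065340-30067795 on mm10) had no overlapping gene, whereas Hes5 (chr4:154960920-154962371) overlaps the noncoding gene Gm20421 on the opposite strand. Whether counting used strand is not stated and the kit is not known to mark it, so reads of Hes5 and Gm20421 cannot be told apart.

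Notch1 had 1188, 2971 and 4983 in the lowest, median and highest WT-GFP sample. The 3 GFP- samples gave 4594, 4838 and 6975. In all, 6 GFP+ samples lay below all GFP- samples and replicate 7 lay among them. Notch1 was called lower with a log2 difference of -1.04 (SE 0.38, p = 0.0197 with limma, adjusted p = 0.058, exact permutation p = 0.05). The call was lost without GFP- replicate 3 (-0.85), with edgeR (-0.66) and when adjusted p was required.

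The nuclear factor I genes, which act with Sox9 in the gliogenic switch, had intervals that spanned 0. Nfia had 240, 377 and 951 in the lowest, median and highest WT-GFP sample. GFP- cells had 432, 443 and 606. Nfia varied widely between astrocyte samples (CV of 51.8%), with 3 samples above and 4 below all GFP- samples, and its log2 difference was -0.05 (95% interval -1.04 to 0.93).

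Nfib had 1865, 3234 and 4938 in the lowest, median and highest WT-GFP sample. Counts in the GFP- samples were 3415, 2772 and 3103, inside the astrocyte range, and the log2 difference was -0.03 (95% interval -0.63 to 0.58). Nfia and Nfib had no stable sign, with differences of 0.38 and 0.31 in edgeR, 0.14 and 0.078 in DESeq2 and -0.23 and -0.20 with equal totals. Nfix had 2520, 2778 and 3947 in the lowest, median and highest WT-GFP sample. In GFP- cells it reached 2815, 2425 and 2380, and the log2 difference was 0.23 (95% interval -0.16 to 0.61). These intervals leave room for differences of up to 1.04 on the log2 scale in Nfia but only 0.63 in Nfib and 0.61 in Nfix, so changes of the size of those in Sox9 or Lhx2 lie outside all 3.

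Of the 10 genes, 6 had GFP+ and GFP- samples that did not overlap, as had 34.8% of all genes tested. A limma adjusted p below 0.05 was found for 6 of the 10 genes and for 8520 of the 26709 genes tested. The calls of Sox9, Sox2, Hes5, Id4, Lhx2 and Hes1 held in each of 13 alternative analyses and when any 1 of the 10 samples was left out. Opposite-strand genes also overlap Nfia (2 genes), Nfib (1), Nfix (1), Id4 (2), Lhx2 (2) and Notch1 (2).

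The other genes of the Notch pathway placed Notch1, Hes1 and Hes5 in context. Of 34 pathway genes beside the members, 3 were higher and 12 were lower in GFP+ cells. The background shares of 9.25% and 33.5% hold here as well. Leaving out the samples with fewer than 20000 genes detected gave 3 higher and 17 lower. Leaving out 1 GFP- sample gave 3 higher and 6 to 9 lower, with 6 in the absence of GFP- replicate 3.

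Ligands were lower in 4 of 5 cases. Dll1 had a mean of 19.2 ± 24.4 (SD, n = 7) in GFP+ and 570 ± 109 (n = 3) in GFP- cells, and Dll3 had 20.6 ± 33.7 against 804 ± 390. Dll4, a ligand of the endothelium, had 105 ± 66.5 against 1687 ± 342. Jag2 had 234 ± 171 against 2631 ± 1458, a call that was lost without GFP- replicate 3. All 4 of these ligands were at 0 in at least 1 GFP+ sample, so their fitted log2 differences, from -4.43 to -6.93, depend on the pseudocount. Jag1, with 91.8 ± 99.0 against 345 ± 65.2, did not pass the test.

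Receptors were lower in 3 of 4 cases, Notch1 included. Notch3, the receptor of mural cells, had 197 ± 167 in GFP+ and 6312 ± 1750 in GFP- cells (limma adjusted p = 0.014). Notch4, an endothelial receptor, had 115 ± 82.0 against 1402 ± 256 (limma adjusted p = 0.0044). Notch2 had 516 ± 311 against 356 ± 110 and was not called (0.34, 95% interval -0.87 to 1.54). Endothelial and mural markers were lower in GFP+ cells as well, and their part in these receptor and ligand levels was not tested.

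Of 8 genes for receptor cleavage, Psenen, a subunit of gamma-secretase, was the 1 called, with 1267 ± 414 in GFP+ and 630 ± 100 in GFP- cells. This call was lost without the samples with fewer than 20000 genes detected. Of 8 modulators, Rfng, a glycosyltransferase acting on Notch receptors, was higher, with 1206 ± 167 against 728 ± 90.7, but this call was lost with equal totals, at a log2 difference of 0.55. Mfng, of the same enzyme family, and Numb, an inhibitor of Notch signalling, were lower, and both calls were lost without any 1 of the GFP- samples. Of 6 nuclear partners, Rbpj (69.0 ± 49.1 against 181 ± 28.9) and Spen, a corepressor (392 ± 174 against 983 ± 324), were lower. The Rbpj call was lost in 7 of 10 leave-one-out analyses, and the Spen call without GFP- replicate 1 or 3. Both calls were also lost with edgeR.

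Among 6 target genes, 2 were higher and 3 were lower. Nrarp, a feedback inhibitor induced by Notch, went with Hes5, with 3992 ± 578 in GFP+ and 1436 ± 127 in GFP- cells (log2 difference of 1.47, limma adjusted p = 6.6e-05). Heyl, with 629 ± 403 against 4005 ± 730, and Hey2, with 140 ± 119 against 878 ± 210, went with Hes1. The Hey2 call was lost in 6 of 10 leave-one-out analyses. It was also lost with edgeR (-2.37) and DESeq2 (-2.60), where the limma log2 difference was -4.44. Hey1 had 3140 ± 330 against 2303 ± 181, with no overlap between groups, but its log2 difference of 0.44 was below the fold threshold.

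**Figure D2:**
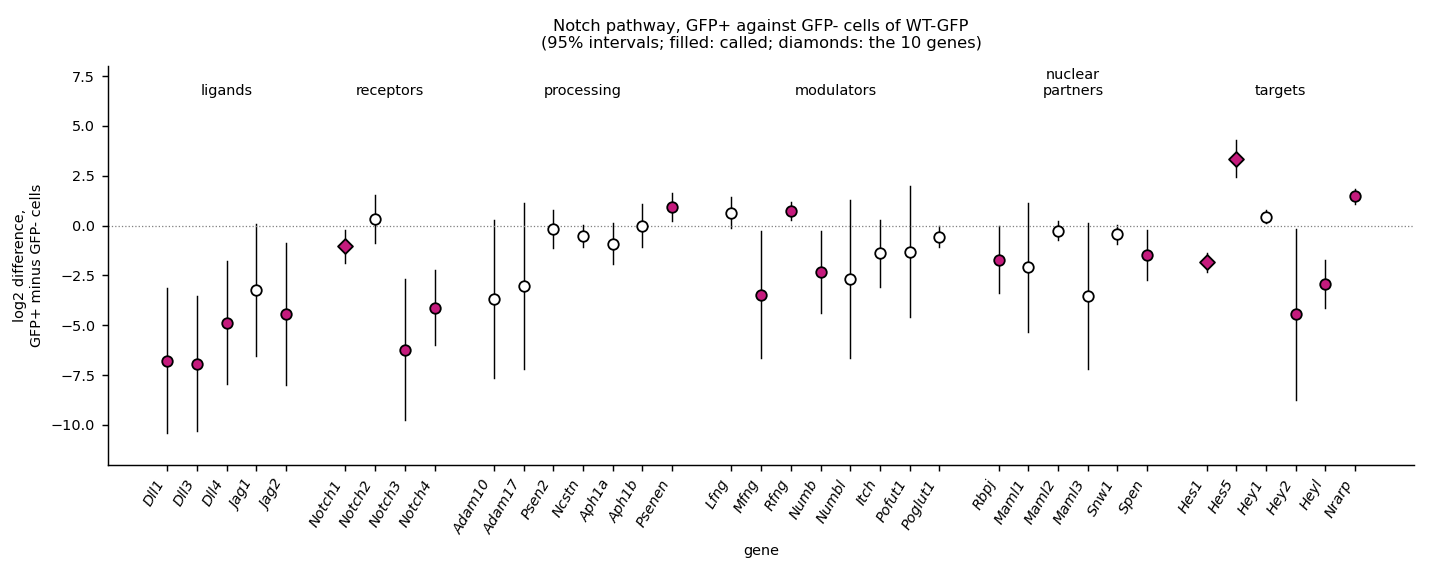
Log2 difference between GFP+ and GFP- cells of WT-GFP (y axis) for Notch pathway genes (x axis), grouped as ligands, receptors, processing, modulators, nuclear partners and targets, with 95% intervals, filled symbols for called genes and diamonds for members. Hes5 at 3.36 and Nrarp at 1.47 lie above 0, whereas Hes1 at -1.85 and Heyl at -2.94 lie below.

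The families of the 10 genes were compared between the 2 cell fractions too, where 9.25% of all genes tested were higher in GFP+ cells and 33.5% were lower. In the Sox family, members included, 4 of 16 genes were higher in GFP+ cells and 8 were lower. Beside Sox9 and Sox2, Sox1 (348 ± 73.5 in GFP+ and 25.4 ± 7.10 in GFP- cells) and Sox21 (3688 ± 916 against 784 ± 242) were higher, both known from neural progenitors. Sox10, the factor of oligodendrocyte lineage cells, was lower, with 24.4 ± 25.1 against 1122 ± 493. Sox7 (465 ± 304 against 3310 ± 1052), Sox17 (598 ± 644 against 6697 ± 2873) and Sox18 (651 ± 537 against 5776 ± 1668), which specify endothelium, were lower as well. Sox4, Sox13, Sox11 and Sox3 were also lower. The calls of Sox17, Sox11 and Sox3 were each lost without GFP- replicate 1. Other GFP- samples also ended those of Sox17 (replicates 2 and 3) and Sox3 (replicate 2). With edgeR the calls of Sox11 and Sox3 were lost.

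Nfic was the 1 nuclear factor I gene that was called, with 367 ± 191 in GFP+ and 799 ± 123 in GFP- cells (limma adjusted p = 0.045). This call was lost without GFP- replicate 3 and with edgeR. In the Id family, Id2 was higher together with Id4, with 19573 ± 3108 against 5311 ± 1445. Id1 was lower, with 2040 ± 1460 against 7853 ± 1292, and Id3 had 16790 ± 8713 against 26056 ± 257 and was not called. In the Hes and Hey family, Hes6 was higher (168 ± 48.3 against 79.5 ± 13.7), although this call was lost without WT-GFP replicate 1 or GFP- replicate 2 or 3. Of 7 LIM homeobox genes tested, Lhx2 was higher. Lhx1, Lhx4 and Lhx5 were lower from mean levels of 16.8, 25.7 and 26.2 in GFP- cells. Lhx4 was at 0 in all 7 GFP+ samples but ran from 0 to 72.5 in GFP- cells, so the groups overlapped. The Lhx4 call was lost with the replicate block and without the samples with fewer than 20000 genes detected. The Lhx1 call was lost in 7 of 10 leave-one-out analyses. The Lhx1 and Lhx5 calls were also lost with edgeR and DESeq2.

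**Figure D3:**
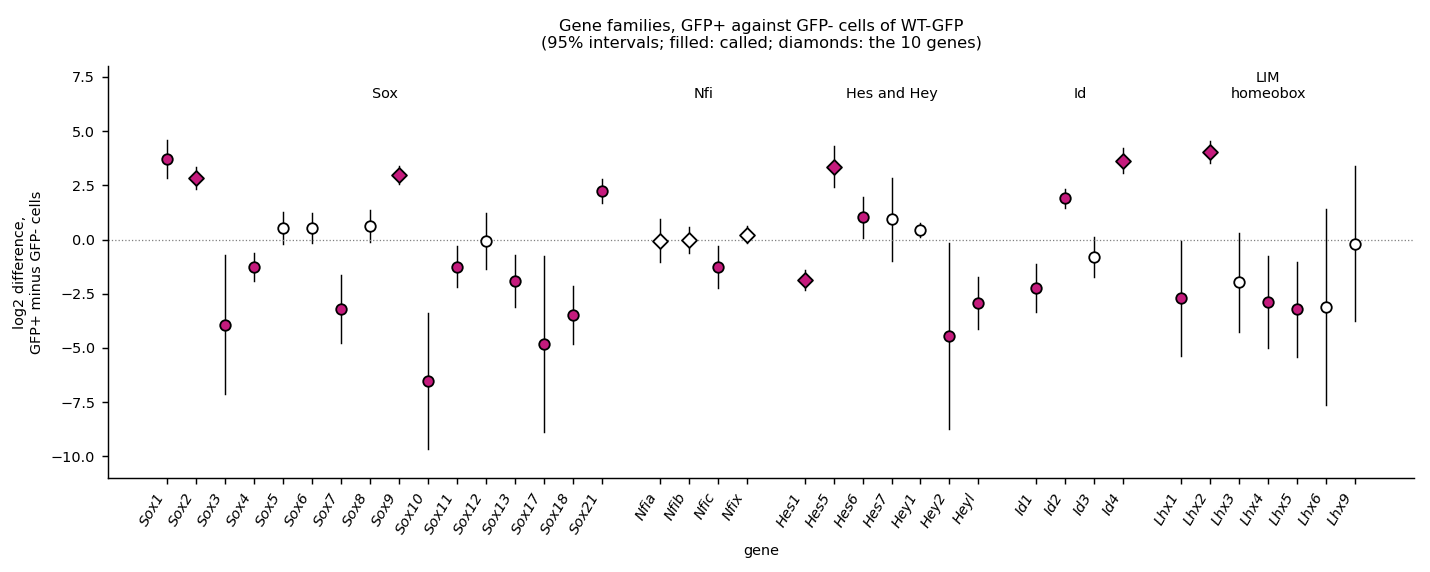
Log2 difference between GFP+ and GFP- cells of WT-GFP (y axis) for genes of the Sox, Nfi, Hes and Hey, Id and LIM homeobox families (x axis), with 95% intervals, filled symbols for called genes and diamonds for the members. Lhx2 at 4.03 and Id4 at 3.64 stand above their families, Sox1 at 3.73 lies above Sox9 at 2.98, and Nfia, Nfib and Nfix lie at 0.23 or below.

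The second comparison asked whether the genes changed in astrocytes of the Alzheimer's disease model. Nfix was higher in APP-GFP than in WT-GFP astrocytes, and the 9 other genes were not called, where 2.23% of 22969 genes were called. WT-GFP samples also enter the comparisons with GFP- cells and with APP-SOCS3, and APP-GFP samples also enter the comparison with APP-SOCS3. The comparisons are therefore not independent. The median log2 difference was 0.09 over the 10 genes and 0.09 over all genes. No member had groups that did not overlap, which 0.313% of all genes had.

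Nfix had 2520, 2778 and 3947 in the lowest, median and highest WT-GFP sample, and 5403, 6134, 4873 and 3244 in the APP-GFP samples. Replicates 1, 2 and 3 of APP-GFP were above all WT-GFP samples and replicate 4 was among them. The means differed by 1.64-fold and the log2 difference was 0.69 (SE 0.20, 95% interval 0.27 to 1.11, p = 0.0037 with limma, adjusted p = 0.999, exact permutation p = 0.0182). Without APP-GFP replicate 2, one of the samples with few genes detected, the difference was 0.57 and below the fold threshold. It was 0.53 without all samples with fewer than 20000 genes detected. Nfix (chr8:84704734-84800342 on mm10) overlaps G430095P16Rik on the opposite strand.

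The APP-GFP samples of Hes5 had 7481, 3134, 9618 and 14822. The widest interval of the 10 genes belonged to Hes5, with a difference of -0.32 (95% interval -1.20 to 0.56), and the lowest of its APP-GFP values came from replicate 2. Without this replicate the difference was 0.11. Notch1 (4440, 2327, 2239 and 3552) had a difference of 0.21 (95% interval -0.55 to 0.96) and Nfia (613, 387, 577 and 498) of 0.12 (-0.75 to 0.99).

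Sox9 had 23769, 18518, 16265 and 21710 in the APP-GFP samples and differed from WT-GFP by 0.18 (95% interval -0.12 to 0.48). The intervals of Sox2 (0.06, -0.28 to 0.39), Lhx2 (0.12, -0.21 to 0.44), Id4 (0.05, -0.31 to 0.42) and Hes1 (-0.05, -0.52 to 0.42) were similarly narrow. For these 5 genes, changes of the fold threshold of 1.5 in either direction lay outside the interval. Nfib differed by -0.12 (-0.66 to 0.42). None of the 34 other Notch pathway genes was called with limma, edgeR or DESeq2, and 0 had an unadjusted p below 0.05. Other limma settings called a few. There were 2 higher in one fit of all samples, 1 higher with the replicate block and 2 lower without the samples with fewer than 20000 genes detected. Leaving out WT-GFP replicate 2 or APP-GFP replicate 2 gave 1 higher each.

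The third comparison asked whether SOCS3 in astrocytes changed the genes in APP/PS1dE9 mice. No member was called in APP-SOCS3 against APP-GFP astrocytes with limma, none had an unadjusted p below 0.05, and edgeR and DESeq2 called 0 members too. Of 22844 genes 5.7% were called and 2.01% had groups that did not overlap. The differences ran from -0.32 to 0.49 with a median of 0.18, against a median of 0.08 over all genes.

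Hes5 had 9266, 8691, 12076, 10369 and 13953 in the APP-SOCS3 samples. These values lay within the range of the APP-GFP samples, and the difference was 0.49 (95% interval -0.30 to 1.29). Without APP-GFP replicate 4 the difference was 0.81 and passed the test.

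Nfix had 4035, 2706, 4598, 4387 and 3709, of which replicate 2 lay below all APP-GFP samples, and the difference was -0.32 (95% interval -0.79 to 0.14). Lhx2 had 4855, 4284, 4656, 5611 and 4313, against 4649, 4627, 3449 and 3614 in APP-GFP. In 3 samples it was above all APP-GFP samples, and the difference was 0.22 (95% interval -0.09 to 0.54). Sox9 (-0.06, -0.46 to 0.35) and Nfib (0.08, -0.29 to 0.45) had the values closest to 0 with Nfia (0.09, -0.56 to 0.74).

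Beside the 10 genes, Dll4 was lower in APP-SOCS3 than in APP-GFP (15.4 ± 27.6 against 151 ± 163). Of the Sox family, Sox17 (118 ± 137 against 749 ± 654), Sox18 (122 ± 64.5 against 593 ± 491) and Sox10 (15.4 ± 12.3 against 91.7 ± 78.8) were lower. No adjusted p passed (limma, 0.577 to 0.789), and the groups overlapped for each gene. The Dll4 call was lost in 5 of 9 leave-one-out analyses, the Sox10 call in 5 of 9 and the Sox18 call without APP-GFP replicate 3. With edgeR the Dll4 and Sox10 calls were lost. All 10 endothelial markers were lower in the same comparison, and their part in the Dll4, Sox17 and Sox18 levels was not tested.

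The fourth comparison set APP-SOCS3 against WT-GFP astrocytes. No member was called with limma, edgeR or DESeq2, where 5.21% of 22958 genes were called and 0.566% had groups that did not overlap. Differences were positive for 9 genes, with a median of 0.20, and the median over all genes was 0.19. Lhx2 and Nfix had an unadjusted p below 0.05 but remained below the fold threshold.

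Lhx2 differed by 0.34 (SE 0.12, 95% interval 0.07 to 0.60, p = 0.0159 with limma, adjusted p = 0.724, exact permutation p = 0.0101). In 3 of the 5 APP-SOCS3 samples it was above all 7 WT-GFP samples. Nfix differed by 0.37 (SE 0.16, p = 0.0416 with limma, adjusted p = 0.873, exact permutation p = 0.0455), and 3 of 5 samples were again above all WT-GFP samples. Id4 had 25895, 24667, 27633, 21297 and 34842 in APP-SOCS3 and differed by 0.28 (95% interval -0.01 to 0.57).

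Notch1 had 3712, 2624, 3179, 5127 and 3542 in APP-SOCS3 and differed by 0.44 (95% interval -0.21 to 1.09). It passed the test without WT-GFP replicate 7, with a difference of 0.60. Of the pathway genes, Lfng, a glycosyltransferase of Notch receptors, was higher (2049 ± 875 against 1152 ± 434, log2 difference of 0.81, limma adjusted p = 0.820) and Dll4 was lower (15.4 ± 27.6 against 105 ± 66.5). The Lfng call was lost without the samples with fewer than 20000 genes detected and without any 1 of 4 samples, WT-GFP replicate 1 or 2 or APP-SOCS3 replicate 3 or 4. The Dll4 call was lost without APP-SOCS3 replicate 2 or 5 and with edgeR. Hey1 (4353 ± 432 against 3140 ± 330) and Id2 (25852 ± 2872 against 19573 ± 3108) were not called. Their APP-SOCS3 samples nevertheless lay above all WT-GFP samples, and 0.566% of all genes had groups that did not overlap. The APP-SOCS3 samples of Hey1 also lay above all APP-GFP samples (3589 ± 320), a comparison in which 2.01% of all genes had groups that did not overlap. Sox18 was lower (122 ± 64.5 against 651 ± 537), and 8 of 10 endothelial markers were lower as well.

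**Figure D4:**
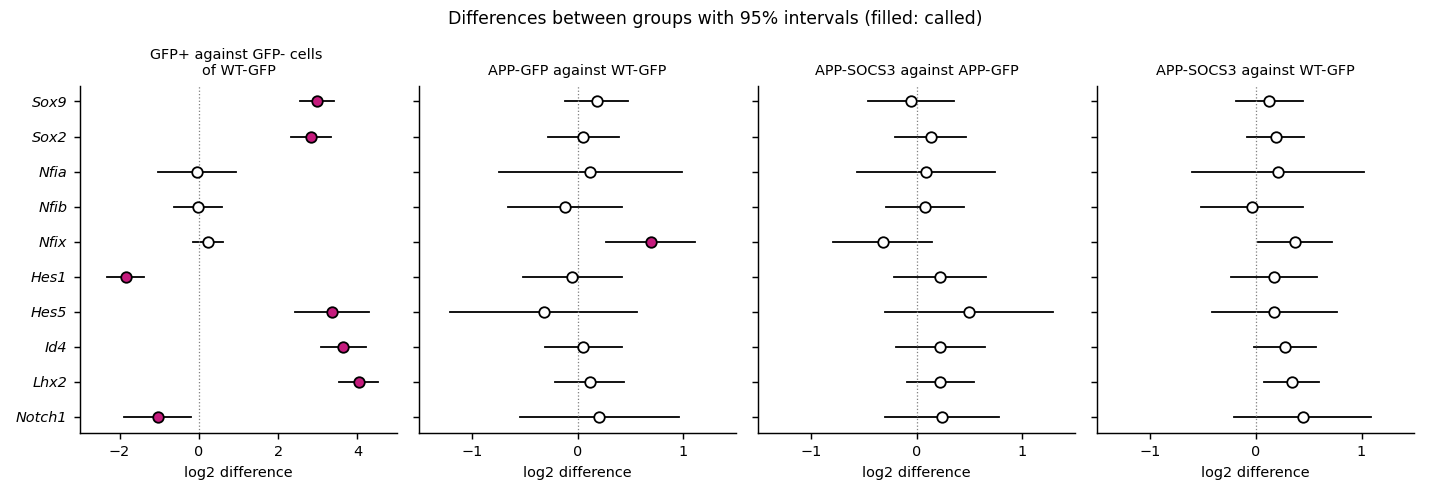
Log2 difference between the first and the second named group (x axis, with a wider scale in the leftmost panel) for each of the 10 genes (y axis) in the 4 comparisons, with 95% intervals and filled symbols for called genes. In GFP+ against GFP- cells the differences run from -1.85 to 4.03, whereas among GFP+ groups Nfix at 0.69 in APP-GFP against WT-GFP is the 1 called gene.

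When the 4 group means of each gene were ordered, the neighbours within the GFP+ groups overlapped for all 10 genes. The order of the 3 GFP+ groups differed between genes. APP-SOCS3 had the highest GFP+ mean for Sox2 (5627 ± 636), Nfia (574 ± 211), Hes1 (1512 ± 323), Hes5 (10871 ± 2152), Id4 (26867 ± 5025), Lhx2 (4744 ± 541) and Notch1 (3637 ± 932). APP-GFP had the highest for Sox9 (20066 ± 3329) and Nfix (4913 ± 1227), and WT-GFP for Nfib (3173 ± 1018).

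The 10 genes did not vary as 1 block between astrocyte samples. Over the 16 GFP+ samples, the 45 pairs of genes had Pearson correlations of log2(normalised read count + 1) from -0.35 to 0.75 with a median of 0.19, and 39 pairs were above 0. Sox9 and Sox2 had the highest value (0.75), followed by Sox2 and Notch1 (0.73), Nfia and Nfib (0.61) and Hes1 and Hes5 (0.56). Hes1 and Hes5 thus varied in the same direction between astrocyte samples while differing in opposite directions between GFP+ and GFP- cells. Nfib and Nfix had the lowest value (-0.35), and Hes5 had values below 0 with Nfix (-0.26), Id4 (-0.20) and Lhx2 (-0.17). These samples share groups and scaling factors and differ in the number of genes detected, so the correlations are given as descriptions.

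**Figure D5:**
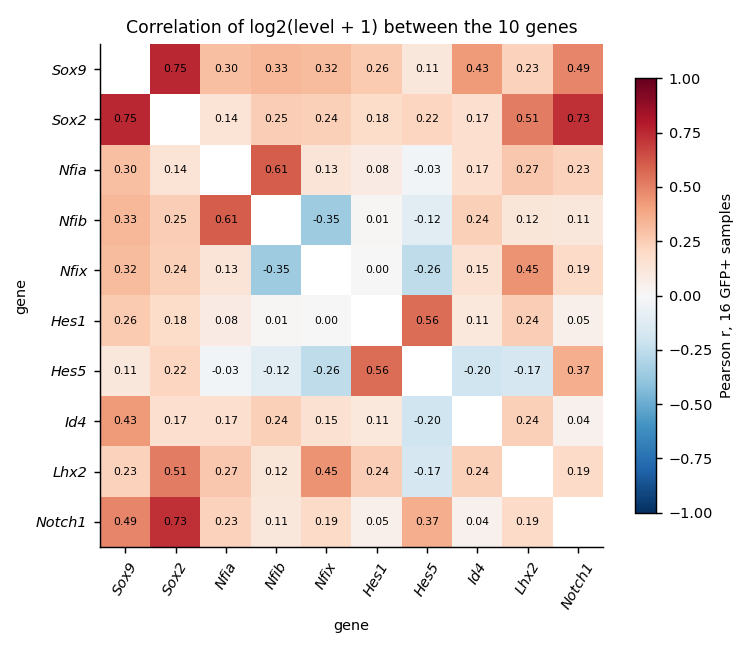
Pearson correlation (colour and printed value) of log2(normalised read count + 1) over 16 GFP+ samples for each pair of the 10 genes (both axes). Sox9 with Sox2 at 0.75 and Sox2 with Notch1 at 0.73 are the darkest cells, and Nfib with Nfix at -0.35 is the lowest.

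The genes whose pattern over the 16 GFP+ samples was most like the mean of the 10 standardised levels were Cyth1 (r = 0.80), Adam11 (0.78), Nit1 (0.78), Spata3 (0.78) and Zfp36l2 (0.77), out of 10652 genes with a mean normalised read count of at least 100. They were picked as the highest values of this search, and how high such values would be among unrelated genes was not tested. The members themselves, which enter that mean, had values between 0.28 for Hes5 and 0.79 for Sox9.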

How the data were processed

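Per the study's methods, cDNA was made with the SMARTer Ultra Low v4 kit and sequenced in pairs. The authors mapped reads to mm10 with STAR 2.4.0, counted those on constitutive regions of FAST DB genes, and scaled the counts with DESeq2. The deposited signal is this normalised read count, from which whole reads were recovered (tolerance 0.01). Strand use is not given in the sources used here. All 19 samples were grouped by their labels.

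Each pair of groups was fitted alone with limma 3.58.1 in R 4.3.3, with its trend option, on log2(value + 1), over genes with a mean of at least 10 in either group. An unadjusted limma p of up to 0.05 and a fold of at least 1.5 were required, following the study, and Benjamini-Hochberg adjusted values are given beside them. The filter on intergenic background was not repeated. Two-sided exact permutation tests for single genes could not go below 0.0167, 0.00606, 0.0159 and 0.00253 in the 4 comparisons in order of appearance. Alternatives were other pseudocounts, minimum levels, scaling, sample weights, edgeR 4.0.16, DESeq2 1.42.0, stricter thresholds, a replicate block and leaving out samples. The limma fit and its calling rule were tried on simulated counts with a fixed dispersion, which did not cover the other methods.

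The named genes were the 10 members, called genes of the Notch and family lists, at most 6 per list by p, with their paralogs, and the 5 genes most like the members. Members and lists were chosen with earlier results of these data known. A gene of the Notch processing list entered the counts but is not reported here.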

Additional observations from a re-analysis of the deposited data

How the results depend on the processing

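The 7 calls in GFP+ against GFP- cells held under all alternatives but for Notch1. In APP-GFP against WT-GFP the count of 1 called gene became 0 at adjusted p, 0 at a fold of at least 2 and 0 without the samples with fewer than 20000 genes detected (chosen after seeing the data), and 0 to 1 when single samples were left out. In APP-SOCS3 against APP-GFP the count of 0 became 0 to 1 when single samples were left out. In APP-SOCS3 against WT-GFP it became 1 with the replicate block (Notch1, 0.68), which changed no other call of a member. The count was 0 to 1 when single samples were left out. The block also dropped samples whose number the other group lacks, here WT-GFP replicates 6 and 7. Leaving out WT-GFP replicate 7 alone gave the Notch1 call too (0.60), so blocking and dropping samples cannot be told apart. Same-numbered samples deviated from their group means with correlations of -0.18 to 0.24, not all above 0.1. Differently numbered samples were not compared in this way, so whether the numbers pair the samples cannot be told from these values.

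Signs turned only for genes that were not called. In GFP+ against GFP- cells, Nfia became 0.17 with sample weights, 0.38 with edgeR, 0.14 with DESeq2 and 0.10 without the samples with few genes (-0.22 to 0.11 leaving out single samples), and Nfib 0.15, 0.31, 0.078 and 0.10 (-0.14 to 0.091). In APP-GFP against WT-GFP, sample weights and leaving out the samples with few genes gave 0.24 and 0.15 for Hes1, 0.19 and 0.11 for Hes5 and -0.22 and -0.21 for Id4, the latter gave -0.013 for Notch1, and DESeq2 gave -0.030 for Nfia. Leaving out single samples gave -0.14 to 0.044 for Hes1, -0.64 to 0.11 for Hes5, -0.10 to 0.18 for Id4, -0.042 to 0.29 for Nfia and -0.071 to 0.14 for Sox2. In APP-SOCS3 against APP-GFP, Nfia was -0.070 with the replicate block, -0.045 without the samples with few genes and -0.070 to 0.26 leaving out single samples, Nfib was -0.018 with sample weights and Sox9 was -0.15 to 0.082. In APP-SOCS3 against WT-GFP, leaving out single samples gave -0.16 to 0.079 for Nfib and -0.025 to 0.29 for Hes5. The cause was not tested.

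Counts over all genes moved by more than 1.5 times in APP-GFP against WT-GFP, from 513 to 817 with no minimum level, 123 with a minimum of 100, 991 in one fit of all samples, 1100 with sample weights and 1 at adjusted p. They moved from 1301 to 650 (minimum of 100) and 1 (adjusted p) in APP-SOCS3 against APP-GFP, from 1197 to 441 (minimum of 100), 2589 (sample weights) and 7 (adjusted p) in APP-SOCS3 against WT-GFP, and from 11419 to 6709 (minimum of 100) in GFP+ against GFP- cells. The higher and lower calls were 382 and 131 in APP-GFP against WT-GFP, and became 412 and 247 with edgeR, 205 and 325 with DESeq2 and 319 and 414 without the samples with few genes. In APP-SOCS3 against APP-GFP, 532 and 769 became 398 and 925, 493 and 947, and 408 and 871, and in APP-SOCS3 against WT-GFP, 733 and 464 became 441 and 762, 340 and 824, and 410 and 1239. The lowest value of the 10 genes rested on 202 reads. Whether these reads stand for as many RNA molecules was not tested.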
